A study of Mus musculus with 10 samples.

Results

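The hnRNP and SR splicing factors were the 37 protein-coding genes whose Ensembl ID maps, in the mouse GENCODE annotation, to a symbol starting Hnrnp or to an Srsf, Tra2 or Srrm1 to Srrm4 symbol. They were 37 of the 21928 protein-coding rows and 55416 rows in all, with 20 hnRNP genes, 11 SR protein genes (Srsf), 2 Tra2 genes and 4 SR matrix protein genes (Srrm). Mouse pituitary RNA pulled down by a mix of Musashi1 and Musashi2 antibodies (Musashi IP, 5 libraries) was compared with that pulled down by control rabbit IgG (5 libraries), to ask which RNAs the Musashi proteins bind. Each lysate held the pooled pituitaries of 6 control mice, sighted FVB animals (FVB.129P2‐Pde6b+Tyrc‐ch/Ant) aged 8 to 10 weeks, and was divided between the antibodies. Lysates 2, 5 and 6 were from females and lysates 3 and 7 from males. Because the antibodies were pooled, RNA bound by Musashi1 and by Musashi2 cannot be told apart, and a library of total lysate RNA was not analysed here, so a difference is always against IgG.

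Musashi proteins bind short UAG-containing motifs, for the most part in 3′ untranslated regions (3′ UTRs), and can repress or activate translation of the bound mRNA. hnRNP proteins coat nascent transcripts and often act as splicing repressors, whereas SR proteins carry arginine-serine repeats, bind exonic enhancers and recruit the spliceosome. The mRNAs of both families are themselves controlled after transcription: many carry highly conserved exons or introns whose inclusion targets the transcript for nonsense-mediated decay, and the proteins regulate their own and each other's mRNA in this way.

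The Musashi motif is a G or an A, then 1 to 3 U, then AGU. The windows below show where the first such motif stands in the 3′ UTR of 5 of the 6 genes with the highest Musashi IP to IgG ratio. Those of Hnrnpa2b1, which was lower in Musashi IP, and of Hnrnpk, which had the densest motifs and did not pass the test, were added after their values were seen, because they carry the same motifs. Each is 30 bases of the longest annotated 3′ UTR on the sense strand, from GENCODE M21 on GRCm38, with the motif in capitals and T for U.
Hnrnpul2: atttgggatcatATAGTttgtaactttaac
Srsf12: acttccacacttGTAGTatggcacgtgtgc
Hnrnpab: aagatgcttgggATAGTttagagattggct
Hnrnpc: gcacATAGTggagcttagaaatcttatccc
Hnrnpa3: gaacgatgatccATAGTcagaaaagttact
Hnrnpa2b1: taccatctgaaaGTAGTtcttgttggtgcc
Hnrnpk: tttttcttttttATAGTgtgaagcagtatt

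On GRCm38 the Hnrnpul2 window lies at chr19:8832819-8832848 on the plus strand. The Srsf12 window lies at chr4:33232491-33232520 on the plus strand and the Hnrnpab window at chr11:51600355-51600384 on the minus strand. The Hnrnpc window lies at chr14:52075050-52075079 on the minus strand and the Hnrnpa3 window at chr2:75665509-75665538 on the plus strand. The Hnrnpa2b1 window lies at chr6:51461332-51461361 and the Hnrnpk window at chr13:58392403-58392432, both on the minus strand. A motif in these letters describes the sequence and does not show that Musashi was bound there.

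Musashi IP libraries held 8.74 to 13.02 M counts and IgG libraries 6.67 to 9.35 M counts. All 37 genes were counted in every library and passed the filter on low counts, with a lowest single value of 52 counts, in Srsf12. The Musashi IP library of lysate 6 stood apart: it was the deepest and had the lowest scaling factor (0.784). In deviations of each gene from its group mean, it correlated with its own IgG library at only r = 0.186. In the same deviations that IgG library reached r = 0.415 with the Musashi IP library of another lysate. Lysate 6 also gave the largest absolute log2 ratio for 32 of the 37 genes (86.5%), against 61.2% of all genes tested, and values without it are given for the genes described in full. The hormone-cell markers were present in every library, with a summed level of 14860 to 40210 CPM (counts scaled to a common library size) in Musashi IP and 13410 to 51640 CPM in IgG, although Lhb had 0 counts in all 10 libraries.

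Of the 37 genes, 4 were enriched in Musashi IP over IgG, 6 were lower and 27 did not pass the test (edgeR quasi-likelihood test with the lysate as a block, Benjamini-Hochberg adjusted p under 0.05 over all genes tested). The enriched genes were Hnrnpa0, Hnrnpul2, Srsf12 and Hnrnpab, and the lower ones were Srrm1, Hnrnpa2b1, Hnrnpll, Hnrnpr, Hnrnpl and Tra2a. None of these 10 changed direction under any scaling tried, although those scalings could hardly have reversed them. They moved values mostly downward. With library totals and with protein-coding genes only, the median of the 37 was -0.16 and -0.20. With library totals 12 of the 37 were lower, against 4068 of 20550 genes, and with protein-coding genes only 15, against 2973 of 14202. As reported, the enriched share was 10.8%, against 18.5% of all 20550 genes tested and 25.7% of the 14202 protein-coding genes. The lower share was 16.2%, against 8.40% of all genes and 4.01% of protein-coding genes, while both directions together came to 27.0% against 26.9% and 29.7%. The median log2 fold change was 0.01 over the 37 genes, -0.07 over all genes tested and 0.09 over protein-coding genes. By unadjusted p under 0.05, 17 of the 37 passed, against 42.1% of all genes and 43.8% of protein-coding genes.

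Lysates were also compared by direction alone. Musashi IP was above IgG in all 5 lysates for 7 genes, against 22.4% of all genes and 31.1% of protein-coding genes. Musashi IP was below IgG in all 5 lysates for 12 genes, against 18.6% and 12.7%. The 5 Musashi IP libraries lay wholly above the 5 IgG libraries for 1 gene, Hnrnpul2 (background 9.70% of all genes and 13.6% of protein-coding genes), and wholly below them for 1 gene, Hnrnpul1 (background 1.98% and 1.35%). In either direction the background was 11.7% and 15.0%.

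**Figure D1:**
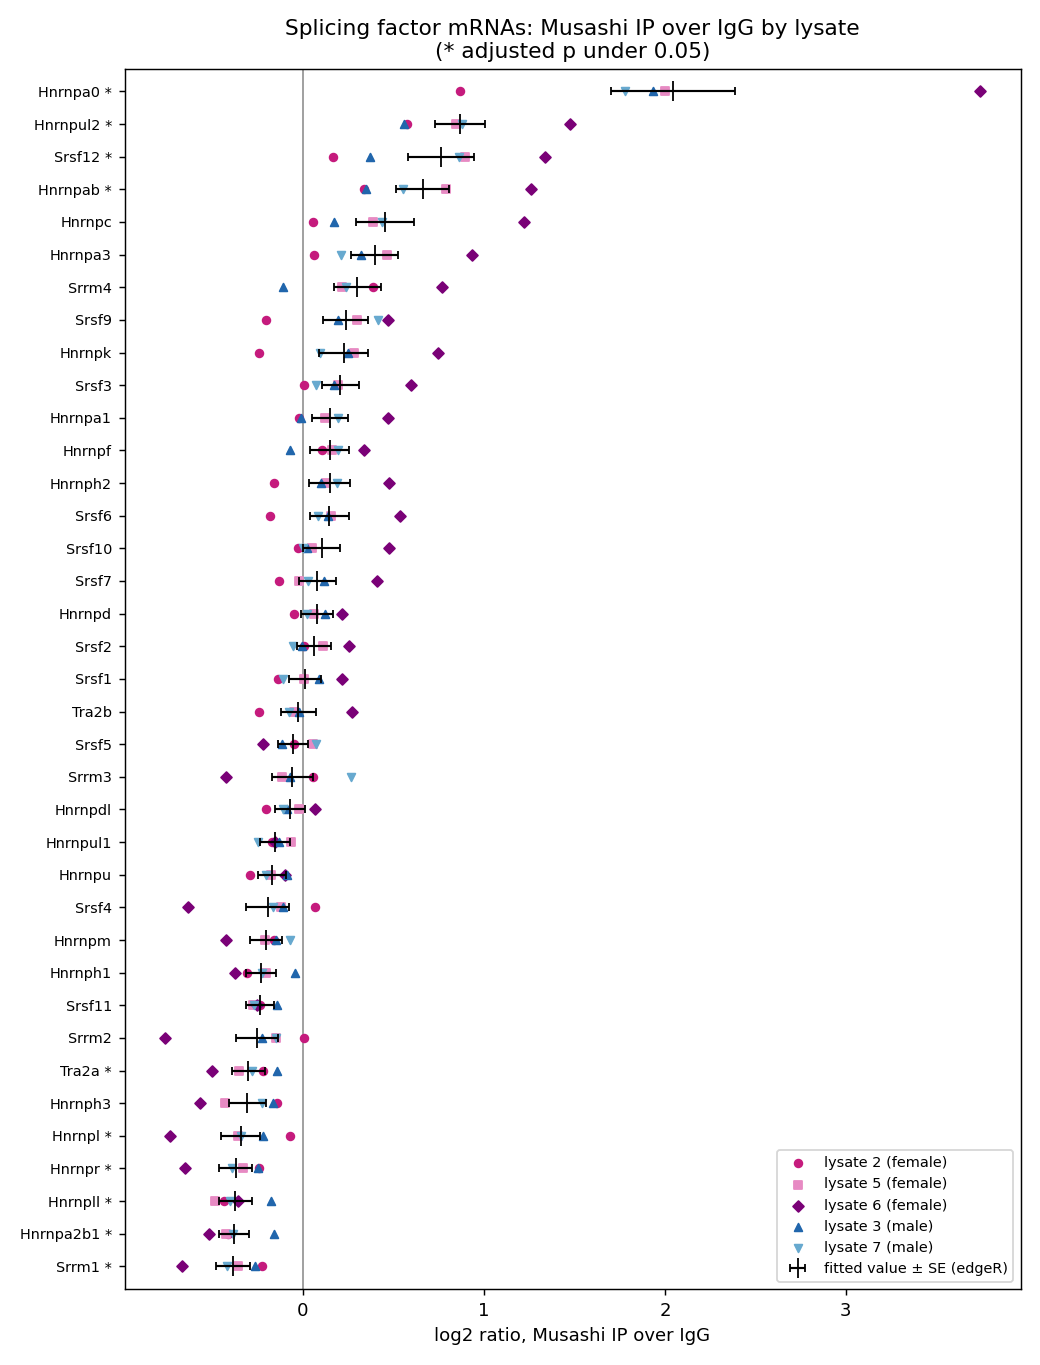
The log2 ratio of Musashi IP over IgG (x axis) for each of the 37 genes (rows), with a point for each of the 5 lysates and the edgeR fitted value ± SE in black; a star marks adjusted p under 0.05. Hnrnpa0 lies furthest to the right with lysate ratios of 0.87 to 3.74, the fitted values of the 6 lower genes lie between -0.39 and -0.30, and lysate 6 gives the ratio farthest from 0 for 32 genes.

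The A/B group of hnRNPs, which bind UAG- and AU-rich RNA and shuttle between nucleus and cytoplasm, held both the largest enrichment and a gene that was lower. Hnrnpa0, an intronless family member that binds AU-rich elements of cytokine mRNAs, had 81.5, 73.3 and 150.0 CPM in the female Musashi IP libraries of lysates 2, 5 and 6 and 43.9 and 51.9 CPM in the male ones of lysates 3 and 7. In the IgG libraries of the same lysates it had 44.5, 18.2 and 11.02 CPM (female) and 11.3 and 14.95 CPM (male). Every lysate was higher in Musashi IP, and the groups touched only because the IgG library of lysate 2, at 44.5 CPM, was just above the lowest Musashi IP library. The means were 80.1 ± 41.9 CPM in Musashi IP and 19.99 ± 14.01 CPM in IgG (SD, n = 5 each), a log2 fold change of 2.04 ± 0.34 (SE; 4.12-fold, adjusted p = 0.0053). It passed under all 14 alternative settings, with log2 fold changes of 1.62 without lysate 6 to 2.42 without lysate 2.

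Hnrnpab, also known as CArG-binding factor A, was enriched by a smaller amount. It had 87.3, 90.5 and 114.7 CPM in the female and 56.3 and 60.4 CPM in the male Musashi IP libraries, against 69.0, 52.1 and 47.8 CPM in the female and 44.2 and 41.0 CPM in the male IgG libraries. All 5 lysates were higher in Musashi IP, but the male Musashi IP libraries lay within the range of the IgG libraries. Its log2 fold change was 0.66 ± 0.15 (1.58-fold, adjusted p = 0.0132), and the call was lost without lysate 5 (adjusted p = 0.0664). Without lysate 6 it held, at 0.51.

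Hnrnpa3, which takes part in mRNA transport, missed the threshold by little. Musashi IP libraries had 158.9, 194.4 and 208.4 CPM (female) and 151.4 and 162.0 CPM (male), against 152.5, 140.6 and 109.2 CPM and 121.2 and 140.2 CPM in IgG. Its log2 fold change was 0.40 ± 0.13 with adjusted p = 0.0503, higher in 5 of 5 lysates. It passed in 5 alternatives, among them those without lysate 2 (adjusted p = 0.0199) and without lysate 6 (adjusted p = 0.0373). Hnrnpa1, the best studied splicing repressor of the group, had a log2 fold change of 0.15 ± 0.10 (adjusted p = 0.270), and a value of -0.02 under scaling to library totals.

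Hnrnpa2b1, which carries RNA along microtubules and reads methylated adenosines, went the other way. Musashi IP libraries held 385.8, 378.5 and 269.8 CPM (female) and 467.9 and 426.7 CPM (male), against 514.1, 508.7 and 387.2 CPM and 522.0 and 557.5 CPM in IgG. Each lysate was lower in Musashi IP, although across lysates the groups overlapped at the IgG library of lysate 6, which lay below both male Musashi IP libraries. The fitted log2 fold change was -0.38 ± 0.09 (0.768-fold, adjusted p = 0.0139). The call held without lysate 6 (-0.34) and was lost without lysate 2 (adjusted p = 0.0503) and without lysate 5 (adjusted p = 0.0783).

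Among the hnRNP U group, Hnrnpul2, a protein recruited to DNA damage, separated the libraries completely. It had 257.5, 248.2 and 363.7 CPM in the female and 219.2 and 244.1 CPM in the male Musashi IP libraries, against 173.1, 137.9 and 130.7 CPM and 148.5 and 132.7 CPM in IgG. The lowest Musashi IP library was above the highest IgG library. Its log2 fold change was 0.87 ± 0.14 (1.82-fold, adjusted p = 0.00474), and it passed in all 14 alternatives (0.64 to 0.99, with 0.72 without lysate 6). Of its transcript windows of 50 bases, 6.18% also occur in another annotated gene, AC129217.1.

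For its paralogue Hnrnpul1 the order was reversed. The Musashi IP libraries lay between 131.5 and 142.3 CPM and the IgG libraries between 146.0 and 156.8 CPM, with no overlap. For Hnrnpul1 the log2 fold change was -0.15 ± 0.08 (adjusted p = 0.184), which did not pass. It passed as lower in 3 of the 14 alternatives: library totals, protein-coding genes only and an offset for transcript length and GC content. Hnrnpu, the scaffold attachment factor, averaged 529 ± 36.7 CPM in Musashi IP and 597 ± 55.8 CPM in IgG. Its log2 fold change was -0.17 ± 0.08 (adjusted p = 0.127), and it passed without lysate 6, at -0.19 (adjusted p = 0.0494). In all it passed in 4 of the 14 alternatives, the others being library totals, a filter at 2 CPM and protein-coding genes only. In single libraries Hnrnpu had 497.4, 569.1, 504.7, 505.0 and 569.0 CPM in Musashi IP and 609.4, 643.9, 539.9, 537.7 and 654.5 CPM in IgG (lysates 2, 5, 6, 3 and 7), so the groups overlapped while each lysate was lower.

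The lower hnRNP genes beyond the A/B group were Hnrnpl, Hnrnpll and Hnrnpr. Hnrnpl, which binds CA repeats, had 289.5, 226.3 and 163.9 CPM (female) and 242.1 and 193.4 CPM (male) in Musashi IP, against 303.8, 289.9 and 272.6 CPM and 282.1 and 245.4 CPM in IgG. The difference was smallest in lysate 2 (log2 ratio -0.07) and largest in lysate 6 (-0.73), and the fitted value was -0.34 ± 0.11 (0.788-fold, adjusted p = 0.0436). It was -0.25 without lysate 6, where it still passed. The Hnrnpl call was lost without lysate 2, without lysate 5 and without lysate 7 (adjusted p = 0.0511, 0.139 and 0.0952).

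Hnrnpll, its paralogue known for splicing of the leukocyte gene Ptprc, had 57.9, 77.5 and 63.6 CPM (female) and 91.7 and 109.7 CPM (male) in Musashi IP, against 78.5, 108.4 and 81.5 CPM and 103.7 and 145.1 CPM in IgG. Lysates differed more from each other than the antibodies did, yet each lysate was lower in Musashi IP. The fitted log2 fold change was -0.37 ± 0.09 (adjusted p = 0.0190). As markers of immune cells, 2 of 5 genes were also lower in Musashi IP, with a summed level of 24.2 to 44.5 CPM in Musashi IP and 36.5 to 50.8 CPM in IgG, and their part in the Hnrnpll value was not tested. The Hnrnpll call was lost without lysate 2, without lysate 5 and without lysate 7 (adjusted p = 0.0668, 0.1 and 0.0557), and it held at -0.37 without lysate 6.

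Hnrnpr, which binds actin mRNA in axons, had 319.9, 372.6 and 262.9 CPM (female) and 415.4 and 383.7 CPM (male) in Musashi IP, against 378.5, 469.0 and 412.5 CPM and 492.9 and 503.0 CPM in IgG. All 5 lysates were lower, and the log2 fold change was -0.37 ± 0.09 (0.773-fold, adjusted p = 0.0188). Hnrnpr has the longest annotated 3′ UTR of the set, 19419 bases, and an offset for transcript length and GC content brought its log2 fold change to -0.09 with adjusted p = 0.373. The Hnrnpr call was lost without lysate 5 (adjusted p = 0.0810) and without lysate 7 (adjusted p = 0.0617), and it held at -0.30 without lysate 6.

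The remaining hnRNP genes did not pass. Hnrnpc, which binds U tracts and keeps U2AF from cryptic exons, had 120.5, 130.6 and 216.6 CPM (female) and 114.4 and 143.7 CPM (male) in Musashi IP, against 116.1, 99.6 and 92.6 CPM and 101.5 and 106.1 CPM in IgG. Its log2 ratio was 1.22 in lysate 6 and 0.05 in lysate 2. The log2 fold change was 0.45 ± 0.16 (adjusted p = 0.0656), and it passed in 4 of the 14 alternatives. Among them were those without lysate 2, at 0.60 (adjusted p = 0.0259), and without lysate 6, at 0.27 (adjusted p = 0.0436). Hnrnph3, of the G-tract-binding F/H group, had 63.8, 53.4 and 41.6 CPM (female) and 71.2 and 61.9 CPM (male) in Musashi IP, against 70.5, 72.1 and 61.9 CPM and 79.9 and 72.5 CPM in IgG. Each lysate was lower for Hnrnph3, at -0.31 ± 0.10 (adjusted p = 0.0538). It passed in 5 of the 14 alternatives, among them library totals and without lysate 3 (adjusted p = 0.0451). Without lysate 6 it was at -0.24. The other F/H genes lay between -0.23 (Hnrnph1) and 0.15 (Hnrnpf and Hnrnph2). Hnrnph1 passed in 4 of the 14 alternatives, among them library totals and without lysate 3, at -0.37 (adjusted p = 0.0367). Hnrnpk, which binds C-rich RNA, was at 0.23, Hnrnpd and Hnrnpdl, which bind AU-rich elements, at 0.08 and -0.07, and Hnrnpm at -0.20. Hnrnpk passed without lysate 2, at 0.39 (adjusted p = 0.0484). Hnrnpm passed as lower in 4 of the 14 alternatives, among them library totals, and Hnrnpdl in 1, protein-coding genes only. Of the 20 hnRNP genes, 3 were enriched and 4 were lower (against 18.5% and 8.40% of all genes).

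**Figure D2:**
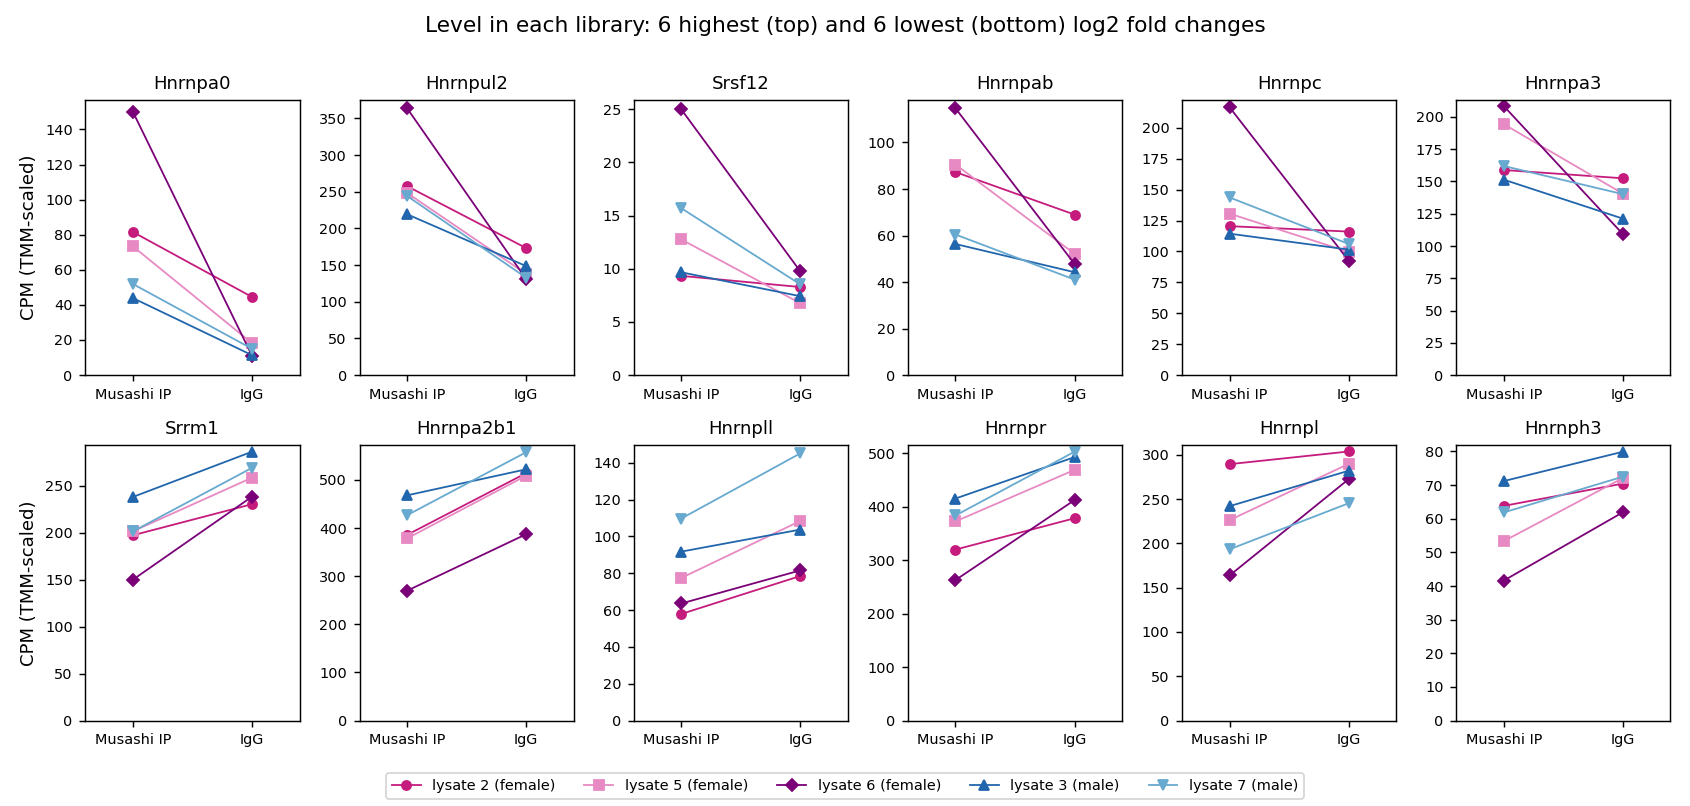
Level in each library (y axis, TMM-scaled CPM from 0) in Musashi IP (left) and IgG (right), with a line for each lysate, for the 6 genes of highest (top) and the 6 of lowest (bottom) log2 fold change. Every lysate is higher in Musashi IP in the top row and lower in the bottom row, and Musashi IP of lysate 6 is the highest point for each top-row gene, at 150.0 CPM for Hnrnpa0.

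Of the 11 SR protein genes, 1 was enriched and 0 were lower, against 18.5% and 8.40% of all genes. That gene was Srsf12, an SR protein that acts as a splicing repressor against other family members, and it had the fewest counts of the 37. It had 9.33, 12.75 and 25.0 CPM (female) and 9.66 and 15.7 CPM (male) in Musashi IP, against 8.28, 6.74 and 9.74 CPM and 7.41 and 8.52 CPM in IgG. All 5 lysates were higher, by log2 ratios of 0.17 in lysate 2 to 1.34 in lysate 6, and the groups overlapped. The log2 fold change was 0.76 ± 0.18 (1.70-fold, adjusted p = 0.0182), and the call was lost without lysate 5 (adjusted p = 0.0779) and without lysate 7 (adjusted p = 0.0714). Without lysate 6 it held at 0.60.

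The other 10 SR genes lay between -0.24 (Srsf11) and 0.24 (Srsf9), and Srsf9 passed without lysate 2, at 0.40 (adjusted p = 0.0350). The classical splicing activators Srsf1, Srsf2 and Srsf7 were at 0.01, 0.06 and 0.08, and each of these values took the other sign under scaling to library totals. Srsf3 and Srsf6 were at 0.21 and 0.15, Srsf10 at 0.10 and Srsf4 at -0.19. Srsf4 passed as lower with protein-coding genes only. Srsf11 came nearest to the threshold, lower in 5 of 5 lysates at -0.24 ± 0.08 (adjusted p = 0.0532). It passed as lower in 8 of the 14 alternatives, among them library totals, limma-voom and an offset for transcript length and GC content. Others were those without lysate 3 (adjusted p = 0.0421) and without lysate 6 (adjusted p = 0.0246). Srsf5 averaged 547 ± 49.6 CPM in Musashi IP and 568.3 ± 59.3 CPM in IgG. In single libraries Srsf5 had 588.7, 573.1, 481.6, 586.4 and 507.1 CPM in Musashi IP, against 610.0, 552.1, 561.8, 635.6 and 481.8 CPM in IgG (lysates 2, 5, 6, 3 and 7). The Srsf5 difference was -0.05 ± 0.08 (adjusted p = 0.646), with 2 lysates higher and 3 lower, and -0.01 without lysate 6.

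The Tra2 proteins, SR-like activators that bind GAA-rich enhancers, were split. Tra2a had 164.8, 163.7 and 145.4 CPM (female) and 195.5 and 173.1 CPM (male) in Musashi IP, against 191.7, 209.2 and 206.2 CPM and 216.1 and 210.4 CPM in IgG. Each lysate was lower, and 1 Musashi IP library, of lysate 3, lay within the IgG range. The log2 fold change was -0.30 ± 0.09 (0.812-fold, adjusted p = 0.0371). The Tra2a call was lost without lysate 2, without lysate 5 and without lysate 7 (adjusted p = 0.0952, 0.144 and 0.0880), and it held at -0.25 without lysate 6. Tra2b was at -0.02 ± 0.10 (adjusted p = 0.864), and the difference between these genes was not tested.

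Of the 4 SR matrix protein genes, Srrm1 was lower. Srrm1, a splicing coactivator, had 197.4, 201.6 and 150.1 CPM (female) and 238.2 and 201.5 CPM (male) in Musashi IP, against 230.5, 258.7 and 238.5 CPM and 286.4 and 269.2 CPM in IgG. Every lysate was lower in Musashi IP, and Musashi IP of lysate 3 lay within the IgG range. The log2 fold change was -0.39 ± 0.09 (0.765-fold, adjusted p = 0.0187), the lowest fitted value of the 37. The Srrm1 call was lost without lysate 5 (adjusted p = 0.0818) and without lysate 7 (adjusted p = 0.0597), and it held at -0.32 without lysate 6. Srrm2, the scaffold of nuclear speckles, had the highest CPM of the set, a value not scaled for length, with 1848, 1576 and 1053 CPM (female) and 1302 and 1025 CPM (male) in Musashi IP, against 1838, 1747 and 1784 CPM and 1520.0 and 1135 CPM in IgG. The log2 ratio was 0.01 in lysate 2 and -0.76 in lysate 6, and the fitted value of -0.25 ± 0.11 did not pass (adjusted p = 0.125). Without lysate 6 it was -0.13 (adjusted p = 0.157). Srrm2 passed as lower in 2 of the 14 alternatives, protein-coding genes only and the offset for transcript length and GC content. Srrm4 and Srrm3, which drive microexon inclusion in neurons and endocrine cells, were at 0.30 ± 0.13 (adjusted p = 0.112) and -0.06 ± 0.11 (adjusted p = 0.711), and at 0.19 and 0.03 without lysate 6.

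Summed over the 37 genes, the share of all counts was 0.776 ± 0.0903% in Musashi IP and 0.918 ± 0.0439% in IgG (SD, n = 5 each), lower in Musashi IP in 5 of 5 lysates. After TMM scaling the difference narrowed to -0.0432 percentage points, against -0.142 for the plain share. Srrm2, which did not pass, weighs most in this sum, with a mean of 1361 CPM in Musashi IP and 1605 CPM in IgG.

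The calls moved with the lysates entered. With every lysate 4 of the 37 genes were enriched and 6 lower, as were 3804 and 1727 of all genes. Without lysate 2 the counts were 8 and 2 of the 37, against 4651 and 1168 of all genes. Without lysate 3 they were 4 and 9, against 3028 and 2101. Without lysate 5 they were 2 and 0, against 1676 and 187. Without lysate 6 they were 6 and 8, against 3632 and 1530. Without lysate 7 they were 3 and 1, against 2288 and 597. Without the lysate as a block, 2 of the 37 genes were enriched, Hnrnpa0 and Hnrnpul2, and 0 were lower, against 2407 and 176 of all genes.

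**Figure D3:**
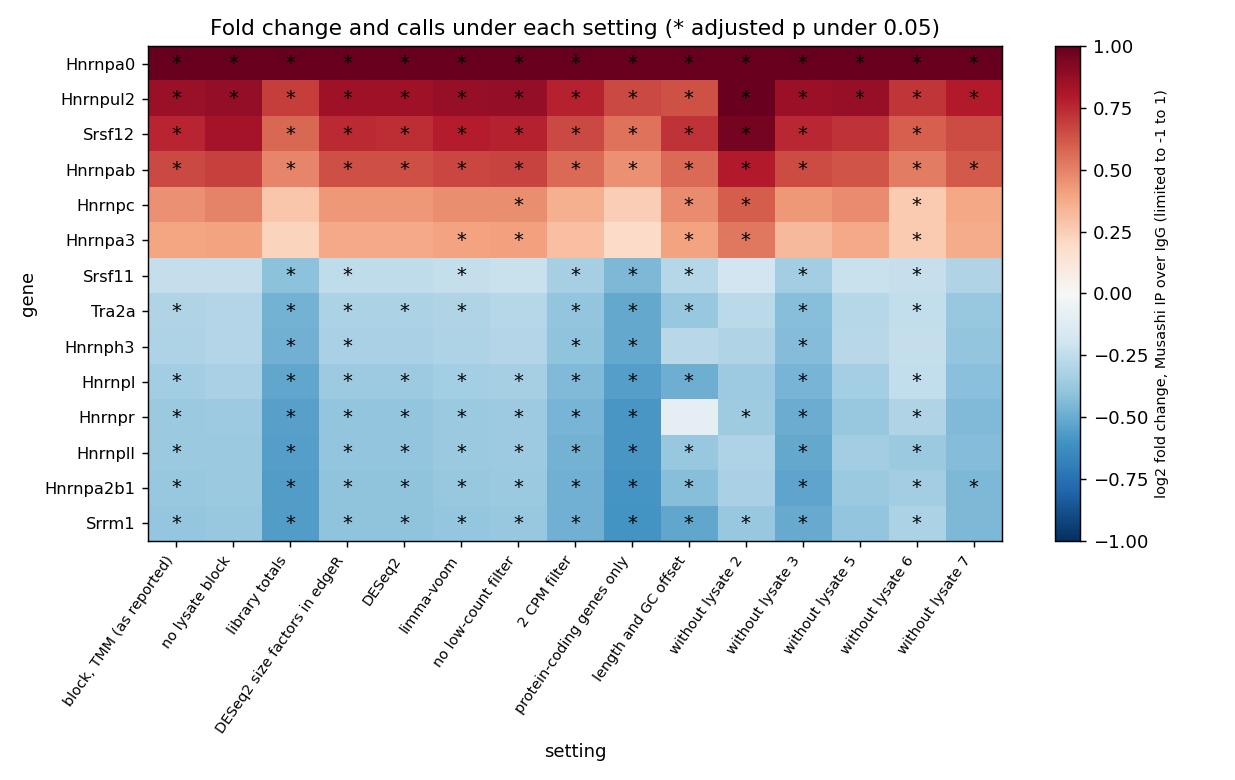
Log2 fold change of Musashi IP over IgG (colour, limited to -1 to 1) for 14 of the genes (rows) as reported and under each of the 14 alternative settings (columns), with a star where adjusted p was under 0.05. Hnrnpa0 and Hnrnpul2 carry a star in every column, and none of the genes with a negative value does without the lysate block or without lysate 5.

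The sexes were immunoprecipitated on separate occasions, so sex and occasion cannot be told apart. The female minus male difference of the antibody effect passed for none of the 37 genes and for 0 of the 20550 genes tested (0%), although 187 genes (0.910%) had an unadjusted p under 0.05. DESeq2 and limma-voom also called 0 genes, with 50 and 193 at an unadjusted p under 0.05. Among the 37 the differences ran from -0.26 (Srrm3) to 0.40 (Srrm4), and 0 had an unadjusted p under 0.05. For Srrm4 the log2 fold change was 0.46 in females and 0.06 in males, a difference of 0.40 ± 0.25 with unadjusted p = 0.160, the smallest of the set. Without lysate 2, 2 of the 37 had an unadjusted p under 0.05, as did 2146 of the 20543 genes then tested.

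Within females 3 genes were enriched (Hnrnpa0, Hnrnpul2 and Hnrnpab) and 1, Hnrnpa2b1, was lower, where 11.6% and 1.74% of all genes passed in these directions and 13.3% in either. At an unadjusted p under 0.05 there were 15 of the 37, against 33.6% of all genes. The log2 fold changes were 2.17 in females and 1.87 in males for Hnrnpa0, and 0.96 and 0.72 for Hnrnpul2. Those of Hnrnpab were 0.80 and 0.45, and those of Hnrnpa2b1 -0.45 and -0.27. Within the 2 male lysates 0 of the 20550 genes passed in edgeR, with 2548 at an unadjusted p under 0.05, while DESeq2 called 540 genes, 1 of them among the 37. A call in females alone therefore does not show a difference between the sexes.

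In the IgG libraries alone, 0 of the 37 genes differed between females and males, where 4.50% of the 20987 genes tested passed in edgeR. At an unadjusted p under 0.05 there were 3, Hnrnpll, Srsf4 and Srrm2, against 16.7% of all genes. Hnrnpll had 78.5, 108.4 and 81.5 CPM in female and 103.7 and 145.1 CPM in male IgG libraries, a log2 difference of -0.48 ± 0.20 (adjusted p = 0.252) with overlapping groups. Srsf4 had 61.5, 63.3 and 67.9 CPM in female and 48.4 and 50.5 CPM in male libraries, which did not overlap, at 0.37 ± 0.16 (adjusted p = 0.275). Srrm2 was higher in each female library than in either male library, at 0.43 ± 0.19 (adjusted p = 0.298). The share of all genes whose female and male IgG libraries did not overlap was not counted, so these separations have no background beside them. With no filter on low counts 1 gene passed, Hnrnpa0 at 0.90, whose IgG level of 44.5 CPM in lysate 2 was far above the 11.02 to 18.2 CPM of the others. In such bulk samples, fewer cells of a type and less RNA per cell cannot be told apart.

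Features of the transcripts that the choice of genes did not use were compared with those of 13666 protein-coding genes tested with an annotated 3′ UTR of at least 100 bases. At least 1 Musashi motif was present in the longest 3′ UTR of 33 of the 37 genes (89.2%), against 73.3% of protein-coding genes. Among 3′ UTRs of 1000 bases or more and under 2000, all 11 of the set held one, against 87.0% of 3640. The median density was 2.80 motifs per kb against 1.51, at a median length of 1308 bases against 1270, and the median GC content of the 3′ UTRs was 36.8% against 44.6%. The 4 genes with no motif were Hnrnph1, Hnrnpl, Hnrnpm and Srrm2, of which Hnrnpl was lower and the others did not pass. A motif was held by all 4 enriched genes, 5 of the 6 lower genes and 24 of the 27 that did not pass.

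The rank correlation of motif count with log2 fold change, across genes and with no test, was 0.30 over the 37 and 0.28 over protein-coding genes, and per kb of 3′ UTR it was 0.18 and 0.11. For the length of the 3′ UTR itself it was 0.35 and 0.4, and for the count of UAG 0.29 and 0.38. Genes share libraries and base composition and are not independent replicates. Hnrnpk, with the densest motifs (9 motifs, 6.92 per kb), did not pass at 0.23. Hnrnpa2b1 held 5.74 motifs per kb and was lower in Musashi IP, and Srsf12, with 1 motif in 2047 bases (0.489 per kb), was enriched. Hnrnpr, which was lower, held 57 motifs in its annotated 19419 bases, or 2.935 per kb, near the median of the set. Hnrnpa0 held 6 motifs, Hnrnpul2 5 and Hnrnpab 3. The 4 enriched genes had a median 3′ UTR of 1782 bases and the 6 lower genes one of 830 bases. The number of exons had a rank correlation of -0.47 with the log2 fold change over the 37 and -0.27 over protein-coding genes. Hnrnpa0 has 1 exon. Among 279 tested protein-coding genes with 1 exon in every transcript 32.3% were enriched, with a median log2 fold change of 0.28. Over all 14202 protein-coding genes tested these were 25.7% and 0.09, and a part of exon number in the Hnrnpa0 value was not tested.

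**Figure D4:**
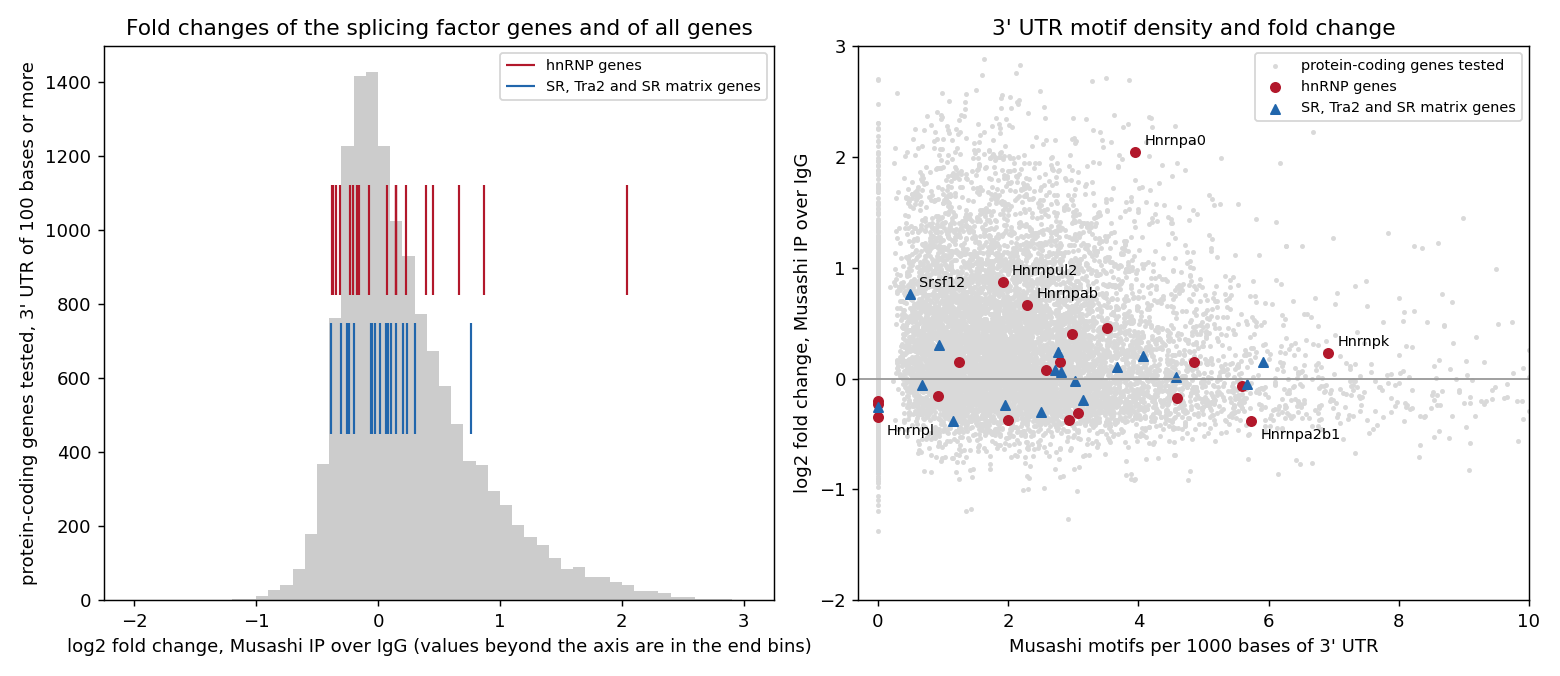
Left, the log2 fold changes of the hnRNP genes (red ticks) and of the SR, Tra2 and SR matrix genes (blue ticks) over a histogram of protein-coding genes tested with a 3′ UTR of 100 bases or more. Right, log2 fold change (y axis) against Musashi motifs per 1000 bases of 3′ UTR (x axis), a point per gene with other protein-coding genes in grey: Hnrnpa0 stands highest of the 37 at 2.04, and Hnrnpk furthest right of them at 6.92 motifs with 0.23.

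Many hnRNP genes have processed pseudogenes, and how multiply mapped reads were counted is not given in the sources used here. For 14 of the 37 genes no 50-base transcript window occurs in another gene's transcripts, and for 11 more than 10% do, up to 49.0% in Hnrnpf, 46.4% in Hnrnpa1 and 34.5% in Hnrnpk. Not all 11 are hnRNP genes, since Srsf3, Srsf5, Srsf10 and Tra2b are among them. Nor is each sharing gene a pseudogene: for Hnrnpm (28.8%) it is the protein-coding gene March2. The counts of those 11 are uncertain, and none of the 10 called genes is among them. A pair of pseudogene rows whose symbols also start with Hnrnp held 0 to 7 counts per library and were left out.

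Other genes of the splicing pathway were described by fixed lists. The first list held 16 SR protein kinases, phosphatases and nuclear importers, and its importers were not only those of SR proteins. Of these 16 genes, 5 were enriched and 2 were lower (43.8% called, against 26.9% of all genes), with a median log2 fold change of 0.22. They included the phosphatase subunit Ppp1cb at 1.08 ± 0.24 (adjusted p = 0.0133) and the importer Tnpo1, transportin 1, which carries hnRNP A1 into the nucleus, at 0.93 ± 0.21 (adjusted p = 0.0133). The importer Tnpo2 was at 0.83 ± 0.15 and the phosphatase regulator Ppp1r8 at 0.58 ± 0.17, while the SR protein kinases Clk4 and Clk1 were lower, at -0.39 ± 0.09 and -0.38 ± 0.09. Tnpo1 averaged 658 ± 302 CPM in Musashi IP and 319.8 ± 37.2 CPM in IgG.

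Of 48 other splicing regulators tested, 8 were enriched and 11 were lower (39.6% called), with a median of -0.01. Ptbp3, a polypyrimidine-tract-binding repressor, was at 1.14 ± 0.22 (adjusted p = 0.00801), Khsrp at 0.65 ± 0.12, Nono at 0.62 ± 0.15 and the epithelial regulator Esrp1 at 0.62 ± 0.14. Of 44 core spliceosome genes, 4 were enriched and 3 were lower (15.9% called), with a median of -0.09. The Sm protein gene Snrpe was at 0.74 ± 0.22, the tri-snRNP genes Prpf4 and Txnl4a at 0.57 ± 0.14 and 0.50 ± 0.13, and the U1-associated Prpf39 at -0.41 ± 0.09. Of 16 genes of nonsense-mediated decay and the exon junction complex, 4 were enriched and 0 were lower (25.0% called), with a median of 0.03. They included Rbm8a at 1.17 ± 0.20, Casc3 at 0.65 and Smg5 at 0.48.

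Markers of other cell types were counted beside these results. Of the hormone-cell markers 2 of 9 were enriched and 0 lower, and of the endothelial markers 0 of 5 passed, with a summed level of 49.2 to 118 CPM in Musashi IP and 59.4 to 274 CPM in IgG. Of 4 erythroid markers tested 3 were lower, with 271 to 688 CPM in Musashi IP and 461 to 1248 CPM in IgG. Of the stem or folliculostellate markers 1 of 4 was enriched (Sox9), with 23.4 to 31.2 CPM against 12.6 to 30.4 CPM, and 0 of 2 posterior-lobe markers tested passed. Each listed marker gene had counts in at least 1 library, and their part in the values of the splicing factor genes was not tested.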

How the data were processed

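The authors deposited raw read counts per Ensembl gene in whole numbers, with no normalization. Per the submitters' processing notes, FastQC 0.11.8, Trimmomatic 0.39 and STAR 2.7.1a were used, with GRCm39 as the genome build. The sources used here do not give the counting program, annotation release, strand setting or handling of multiply mapped reads. Per the labels' protocols, libraries came from a stranded total RNA kit.

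Symbols, biotypes and 3′ UTRs came from GENCODE M21 (GRCm38), matched by gene ID for 52135 of 55416 rows (94.1%). Unmatched rows, 0.726% to 4.03% of the counts in a library, were kept in totals and tests. Coordinates are those of GRCm38, not of the counts' build.

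All tests ran on the deposited counts in R 4.3.3 with edgeR 4.0.16 (filterByExpr, TMM factors, glmQLFit and glmQLFTest) and Benjamini-Hochberg adjustment at 0.05 over all genes. DESeq2 1.42.0 and limma 3.58.1 were alternatives. The antibody effect was fitted with lysate blocks and 4 residual degrees of freedom, and the sex difference of that effect was fitted nested (3). The SE of a log2 fold change was worked back from the test, as its absolute value over the square root of the quasi-likelihood F statistic. CPM are TMM-scaled, and log2 ratios per lysate used a prior count of 2. No pair of libraries held identical values (highest correlation 0.982).

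Per the labels' protocols each lysate was divided between the antibodies, so its number pairs 2 libraries. Deviations from group means correlated at 0.523, 0.679, 0.602, 0.186 and 0.778 within lysates 2, 3, 5, 6 and 7. Immunoprecipitations were done on separate occasions, and nothing else says that lysates were independent.

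The genes and lists were chosen with earlier results of these data known. Named with full values were the 6 genes of largest and 6 of smallest log2 fold change and the 3 of highest mean CPM, and up to 4 called genes of each other list. Any other gene was named with its values in view. The scripts were tested on simulated data. A few items are not reported here.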

Additional observations from a re-analysis of the deposited data

Results flagged for a closer look

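Single libraries stood apart from the others of their group in 5 values. The IgG library of lysate 2 held 44.51 CPM of Hnrnpa0, against 11.02 to 18.2 CPM in the other IgG libraries. The Musashi IP library of lysate 6 held 363.7 CPM of Hnrnpul2, with the next highest at 257.5 CPM, and 216.6 CPM of Hnrnpc, with the next highest at 143.7 CPM. For Srsf10 the log2 ratio of Musashi IP over IgG was 0.4753 in lysate 6, where the next highest was 0.05. The IgG library of lysate 6 held 387.2 CPM of Hnrnpa2b1, with the next lowest at 508.7 CPM. Chance flags about 1 in 20 of such groups, or 5.55 of the 111 groups screened.

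For Srsf2 each of the 3 female lysates had a ratio above 0 and both male lysates had one below 0. The female lysate 2 (0.0044) and the male lysate 3 (-0.0033) both lay next to 0. The share of all genes that split by sex in this way was not counted. The mean log2 ratios were 0.12 in females and -0.03 in males, a difference of 0.1527 that was not tested on these ratios. In the fit across all genes the female minus male difference for Srsf2 was 0.15 ± 0.21 and did not pass.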

How the results depend on the processing

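Of 518 recomputed log2 fold changes of the 37 genes under 14 alternatives, 409 kept their direction and their side of the threshold, 43 newly passed it, 28 no longer passed and 38 changed sign. The cause of a change was not tested except where stated. None of the 10 called splicing factor genes changed sign. Depth was not varied, and the lowest single count of the 37 genes was 52.

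Without the replicate block, 2 splicing factor genes were enriched and 0 lower, the core spliceosome list gave 1 and 0, the other splicing regulators gave 4 and 2, and 0 SR kinases, phosphatases and importers were lower.

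Scaling to library totals moved the median of all genes by -0.18. The lower genes were then 12 splicing factor genes, 12 core spliceosome genes, 6 of the kinase, phosphatase and importer list and 17 other regulators. Of all 20550 genes tested, 4068 were then lower, against 1727 as reported. With a 2 CPM filter 11 splicing factor genes, 8 core genes and 5 of the kinase list were lower, as were 3214 of the 18379 genes then tested. With protein-coding genes only, 15 splicing factor genes, 16 core genes, 7 of the kinase list and 20 other regulators were lower. So were 4 of the nonsense-mediated decay list, and 2 core genes were enriched. Of the 14202 genes then tested, 2973 were lower and 2924 enriched. The length and GC offset gave 2 enriched and 10 lower core genes and 5 lower of the kinase list. Of the 20275 genes then tested, 3377 were enriched and 2035 lower. DESeq2 size factors and limma-voom each gave 5 lower core genes, and 2053 and 1803 lower of all genes. Without a low-count filter 1 splicing factor gene was higher in female than in male IgG.

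Leaving out each lysate in turn gave 2 to 8 enriched and 0 to 9 lower splicing factor genes. The core list ranged over 0 to 5 enriched and 0 to 5 lower, the kinase list over 1 to 7 and 0 to 3, the other regulators over 3 to 9 and 0 to 14, and the nonsense-mediated decay list over 3 to 6 and 0 to 0. The summed share difference ranged over -0.1608 to -0.1102 percentage points, and was -0.0432 from TMM-scaled CPM and -0.233 of protein-coding counts. The motif rank correlation was 0.178 per kb.

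The changes of sign fell on genes that had not passed the test. With library totals and with protein-coding genes only, the log2 fold change was -0.0249 and -0.0583 for Hnrnpa1, -0.1003 and -0.1337 for Hnrnpd, -0.0305 and -0.0636 for Hnrnpf, and -0.028 and -0.0616 for Hnrnph2. It was -0.1634 and -0.1968 for Srsf1, -0.0718 and -0.1053 for Srsf10, -0.1144 and -0.1478 for Srsf2, -0.0291 and -0.0625 for Srsf6, and -0.0962 and -0.1296 for Srsf7, and Srsf3 was at -0.0013 with protein-coding genes only. With the 2 CPM filter Hnrnpd was at -0.0205, Srsf1 at -0.0836, Srsf2 at -0.0346 and Srsf7 at -0.0164. Srsf1 was at -0.0062 with DESeq2 size factors, -0.0061 with DESeq2 and -0.0121 with the length and GC offset, which put Srsf5 at 0.0202 and Tra2b at 0.0298. Over the lysates left out, Hnrnpd ranged from -0.0267 to 0.1551, Hnrnpdl from -0.157 to 0.0101, Srrm3 from -0.2088 to 0.0324, Srsf1 from -0.0964 to 0.0982, Srsf2 from -0.0124 to 0.124, Srsf7 from -0.0197 to 0.1802 and Tra2b from -0.115 to 0.0783.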
